A study of Mus musculus with 20 samples.

Results

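The 41 genes described here drive or accompany cell division: 3 G1 cyclins (Ccnd1, Ccnd2 and Ccne2), 14 genes of S phase and 24 genes of mitosis. They were chosen as a list of symbols with no threshold on a measured value, and all 41 were found among the 37994 genes of the developmental series and among the 36104 genes of the E18 set. The series measured single cells of the mouse habenula, a small epithalamic structure, on 15 plates of the Brn3a-tauLacZ line, whose name refers to a tau-LacZ reporter at Brn3a, the older name of Pou4f1. Plates came from embryonic days 11 (E11), 12, 13, 15 and 18, from postnatal days 4 (P4) and 7, and from adults of unstated age, with 2 plates at each stage and 1 at E12. The second set was of the C57BL/6 strain at E18, where 2 plates held the left habenula, 2 the right and 1 both. The labels state neither the genotype of the reporter mice nor how cells were selected, the animals per plate or the sequencing run of each plate, so run and stage cannot be told apart. The plate was the replicate throughout, so p-values measure the spread between plates, which may be technical.

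Cells enter division through D cyclins, which partner Cdk4 and Cdk6 in G1, and E cyclins, which partner Cdk2 at the start of S phase. The Mcm proteins form the helicase that Cdc6 and Cdt1 load onto DNA, a loading that geminin (Gmnn) restrains. Pcna is the sliding clamp of the polymerases, and Rrm1, Rrm2 and Tyms supply nucleotides. Cdk1 with its cyclins Ccna2, Ccnb1 and Ccnb2 starts mitosis, the aurora kinases, Plk1, kinesins and centromere proteins build and attach the spindle, and Cdc20 and Ube2c act in the ubiquitylation that ends it. Habenular neurons, like other neurons, leave the cell cycle as they form, while glial precursors keep dividing later.

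Transcription of these genes is timed by short promoter elements, and the 2 phases use different ones. Mitosis genes are known for a cell cycle genes homology region (CHR), often near CCAAT boxes, and S-phase genes for E2F sites. RefSeq promoters on GRCm38.p6, from 250 bases before to 50 after the start, were matched for 33 of the 41 genes (35 promoters: 22 of mitosis genes, 13 of S-phase genes, none of a G1 cyclin). The CHR was searched as TTTGAA or TTCGAA, the CCAAT box as CCAAT, and the E2F site as TTT, then 2 bases that are each C or G, then CGC, all on both strands. The CHR was in 81.8% of the mitosis promoters and 15.4% of the S-phase promoters, against 19.2% of 32851 promoters of the same length. The E2F letters were in 4.55% of the mitosis promoters and 53.8% of the S-phase promoters, against 2.26% of all. CCAAT was in 90.9% and 76.9%, against 37.4%. A match is a description of these letters, not of a bound site. The promoters shown are those of the 2 mitosis genes and the 2 S-phase genes that fell most from embryonic to postnatal plates in the test given later. Capitals mark the matches, and each line reads 5′ to 3′ on the gene's strand.

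Cenpa, the centromeric histone variant, chr5:30666636-30666935, + strand: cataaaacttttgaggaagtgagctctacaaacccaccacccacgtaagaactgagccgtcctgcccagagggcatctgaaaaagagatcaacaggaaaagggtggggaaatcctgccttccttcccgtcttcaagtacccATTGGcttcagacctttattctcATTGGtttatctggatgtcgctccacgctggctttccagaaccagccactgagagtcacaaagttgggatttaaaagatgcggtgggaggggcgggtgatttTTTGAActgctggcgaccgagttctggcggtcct
Cdca8, borealin of the chromosomal passenger complex, chr4:124936868-124937167, - strand: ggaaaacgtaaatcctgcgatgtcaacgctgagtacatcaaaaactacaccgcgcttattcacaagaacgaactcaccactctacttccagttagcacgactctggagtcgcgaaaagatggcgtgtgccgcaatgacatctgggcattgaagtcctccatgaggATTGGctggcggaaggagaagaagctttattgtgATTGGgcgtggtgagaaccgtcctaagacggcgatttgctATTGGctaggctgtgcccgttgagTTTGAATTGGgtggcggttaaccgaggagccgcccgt
Rrm2, the small subunit of ribonucleotide reductase, chr12:24708004-24708303, + strand: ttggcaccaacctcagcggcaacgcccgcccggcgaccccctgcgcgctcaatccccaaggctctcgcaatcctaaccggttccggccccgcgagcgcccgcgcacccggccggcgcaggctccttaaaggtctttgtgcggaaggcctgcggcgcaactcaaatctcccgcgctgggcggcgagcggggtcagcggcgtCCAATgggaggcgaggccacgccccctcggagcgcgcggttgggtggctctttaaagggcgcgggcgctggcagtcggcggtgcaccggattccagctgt
Pclaf, a Pcna-binding protein, chr9:65890073-65890372, + strand: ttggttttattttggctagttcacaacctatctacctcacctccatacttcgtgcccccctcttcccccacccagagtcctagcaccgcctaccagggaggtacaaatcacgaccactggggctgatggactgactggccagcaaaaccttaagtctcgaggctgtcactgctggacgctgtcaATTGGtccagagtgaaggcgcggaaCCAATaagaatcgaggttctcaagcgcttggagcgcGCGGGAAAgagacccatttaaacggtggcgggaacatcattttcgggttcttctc

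Cenpa and Cdca8 each held 1 CHR match just after the start, with 2 and 4 CCAAT matches, and in Cdca8 the CHR shares its last base with a CCAAT match. Pclaf held 1 E2F match and 2 CCAAT matches. Rrm2 held 1 CCAAT match and none of the other letters. Over all mitosis promoters the CHR matches began between 188 bases before and 41 after the start (positions -188 and 41), with a median of -18. The E2F matches of the S-phase promoters had a median position of -76.5.

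**Figure D1:**
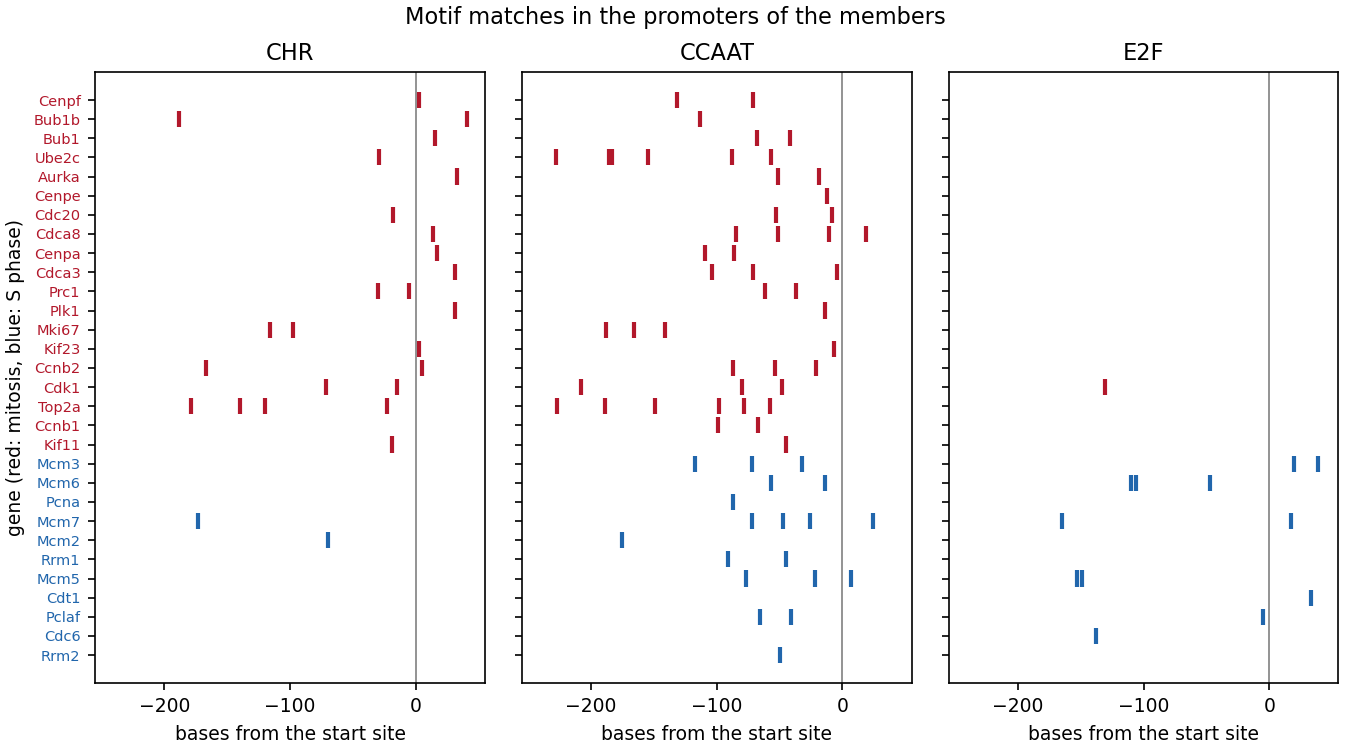
Position of each motif match, in bases from the annotated start site, for the mitosis genes (red) and the S-phase genes (blue) with at least 1 match; 1 tick is 1 match. CHR ticks lie mostly in red rows and E2F ticks mostly in blue rows, while CCAAT ticks lie in both, and Nusap1, Birc5 and Tyms had no match and are not drawn.

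In the series 3729 of 5756 wells were kept as cells, and 1082 of 1920 in the E18 set. Total counts per plate ran from 758697 on adult plate 1, which kept 56 wells with a median mitochondrial share of 11.9%, to 7760372 on P7 plate 1. The summed habenula marker list was present on every plate, from 642 counts per 1000000 counts of the plate (CPM) on E18 plate 1 to 4869 CPM on adult plate 2. Plates of 1 stage differed in cell mixture. E13 plate 2 held 3823 CPM of the ependymal and choroid plexus list and 1023 CPM of the mural and fibroblast list, against 13.1 and 138 CPM on E13 plate 1. E18 plate 1 held 4422 CPM of the progenitor list and 3497 CPM of the neuron list, against 296 and 8306 CPM on E18 plate 2. The embryonic-to-postnatal counts are therefore given with and without E13 plate 2, E18 plate 1 and adult plate 1. In summed counts of a plate, fewer cells of a type and less RNA per cell cannot be told apart. The per-well counts further on describe in how many wells the genes were detected, which can also change with either.

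The G1 cyclins followed 3 patterns. Ccnd2, the D cyclin of neural progenitors, was at 206 and 220 CPM (E11), 126 (E12), 105 and 243 (E13), 45.1 and 8.32 (E15), 494 and 18.8 (E18), 30.4 and 20.0 (P4), 12.0 and 9.50 (P7), and 11.9 and 67.4 (adult). The E11, E12 and E13 plates were all above every postnatal and adult plate, whereas E15 plate 2 was below all of them and E18 plate 2 within their range. Ccnd1 was at 31.2 and 17.6 CPM (E11), 23.2 (E12), 40.9 and 153 (E13), 14.1 and 8.32 (E15), 73.5 and 16.6 (E18), 8.65 and 10.9 (P4), 6.71 and 5.80 (P7), and 34.3 and 55.7 (adult). Both adult plates were above both P7 plates. Ccne2, an E cyclin, was at 4.83 and 4.70 CPM (E11), 4.42 (E12), 3.41 and 30.8 (E13), 4.34 and 1.49 (E15), 2.39 and 5.28 (E18), 10.5 and 8.74 (P4), 9.54 and 8.27 (P7), and 2.64 and 6.36 (adult). Its P4 and P7 plates were above every embryonic plate except E13 plate 2.

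The S-phase genes stayed detectable at every stage. Pcna was at 38.1 and 22.7 CPM (E11), 28.2 (E12), 35.8 and 71.2 (E13), 26.1 and 20.8 (E15), 29.1 and 15.1 (E18), 28.2 and 25.2 (P4), 22.9 and 27.1 (P7), and 33.0 and 37.2 (adult). Apart from E13 plate 2, the embryonic and later plates of Pcna overlapped. Rrm2 was at 43.1 and 29.2 CPM (E11), 13.9 (E12), 34.7 and 96.7 (E13), 6.51 and 7.73 (E15), 22.4 and 13.6 (E18), 4.58 and 3.22 (P4), 1.93 and 0.703 (P7), and 0 and 14.1 (adult). All 9 embryonic plates were above the 4 P4 and P7 plates, and only adult plate 2 reached into the embryonic range. Mcm3, of the replicative helicase, was at 7.73 and 5.11 CPM (E11), 8.64 (E12), 8.52 and 43.0 (E13), 0.543 and 1.19 (E15), 20.8 and 0 (E18), 4.24 and 2.76 (P4), 1.16 and 0.527 (P7), and 1.32 and 3.98 (adult). For Mcm3 the 2 E18 plates were far apart, plate 1 the second highest of the series and plate 2 the 1 plate at 0. Cdc6 had the lowest counts of the S-phase genes, at no more than 10.1 CPM on any plate, and was the 1 member that did not pass the filter on low counts in the series.

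The mitosis genes were highest at E13 and differed widely between the 2 plates of E13, E15 and E18. Mki67, the proliferation antigen, was at 18.4 and 13.1 CPM (E11), 16.9 (E12), 27.3 and 107 (E13), 6.52 and 0 (E15), 23.95 and 0 (E18), 1.36 and 3.84 (P4), 4.39 and 0 (P7), and 0 and 3.38 (adult). Mki67 was thus at 0 on the second plate of E15, of E18 and of P7 and on adult plate 1, where 3 counts, the most a 0 allows at 95%, are 0.891, 2.26, 0.528 and 3.95 CPM. Top2a, which untangles DNA before segregation, was at 57.9 and 27.6 CPM (E11), 45.8 (E12), 71.7 and 238 (E13), 18.5 and 0.594 (E15), 23.2 and 1.51 (E18), 7.82 and 6.45 (P4), 8.27 and 2.11 (P7), and 2.64 and 17.3 (adult). E15 plate 2 and E18 plate 2 lay below every postnatal and adult plate for Top2a. Cdk1 was at 17.8 and 7.97 CPM (E11), 15.2 (E12), 31.3 and 167 (E13), 7.60 and 1.19 (E15), 16.8 and 0.753 (E18), 2.38 and 2.61 (P4), 3.48 and 4.93 (P7), and 1.32 and 13.1 (adult). Ccnb1 was at 16.6 and 11.4 CPM (E11), 11.4 (E12), 39.2 and 131 (E13), 5.43 and 0 (E15), 15.98 and 0 (E18), 0.339 and 5.54 (P4), 1.93 and 1.76 (P7), and 0 and 4.77 (adult). For both genes E13 plate 2 was the highest plate and the second plates of E15 and E18 were at or below the postnatal plates.

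Summed over the 24 mitosis genes, the level was 418 and 223 CPM (E11), 328 (E12), 638 and 2310 (E13), 181 and 30.6 (E15), 334 and 37.7 (E18), 70.2 and 95.5 (P4), 84.1 and 49.6 (P7), and 34.3 and 129 (adult). Summed over the 14 S-phase genes it was 350 and 260, 242, 325 and 802, 186 and 151, 365 and 173, 135 and 126, 104 and 86.7, and 124 and 160 CPM in the same order. The mitosis sum spanned a far wider range over the 15 plates than the S-phase sum. The ratio of the S-phase to the mitosis sum was lowest on E13 plate 2 (0.347) and E13 plate 1 (0.509), and highest on E15 plate 2 (4.92), E18 plate 2 (4.60) and adult plate 1 (3.62). The mitosis sums of those last 3 plates rest on only 103, 50 and 26 UMIs. Counts here come from transcript ends and are not scaled by length, so the ratio is read only between plates. On those last 3 plates Mcm7, Rrm1, Pcna and Mcm4, which were picked after their values were seen, made up 70.8%, 71.3% and 67.0% of the S-phase sum. Their share was as high on other plates with lower ratios, with 80.4% on E15 plate 1, 73.6% on P7 plate 2 and 69.3% on P7 plate 1, and it was lowest on E13 plate 2 (41.1%). The other 10 S-phase genes gave a ratio to the mitosis sum of 1.44, 1.32 and 1.19 on those plates and 0.2005 to 0.684 on the other 12.

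**Figure D2:**
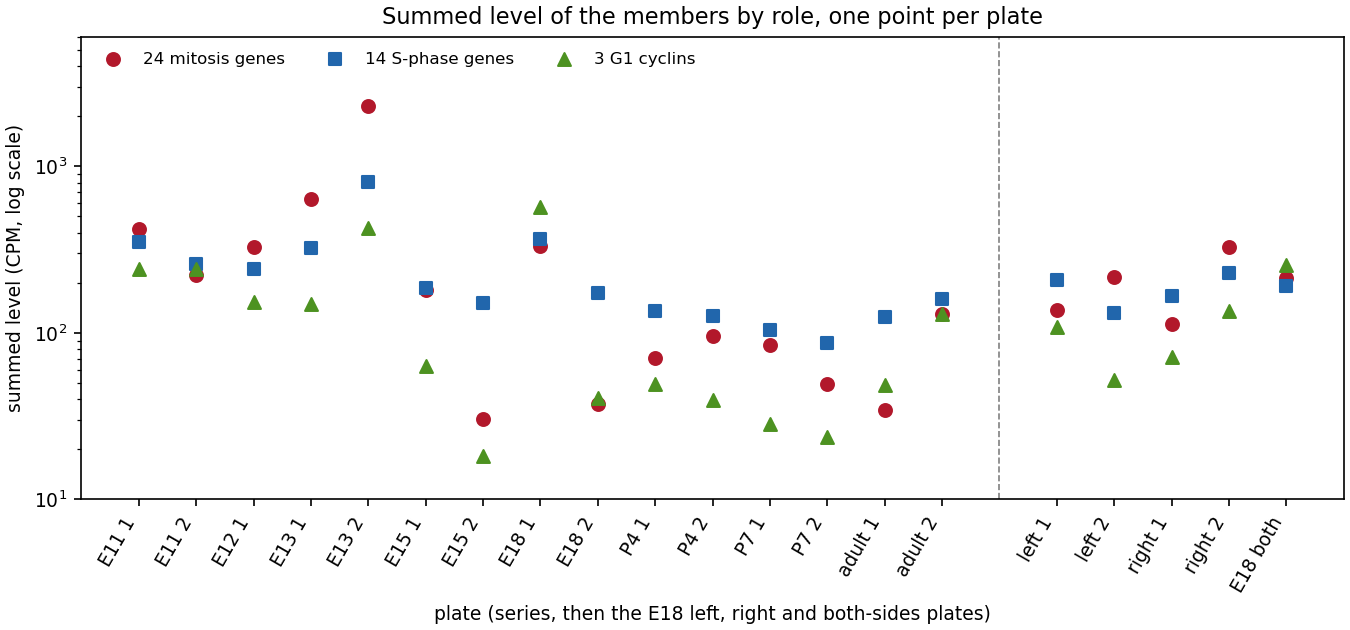
Summed level of the 24 mitosis genes (circles), the 14 S-phase genes (squares) and the 3 G1 cyclins (triangles) on each plate, in CPM on a log scale; each point is 1 plate and the dashed line separates the series from the E18 set. Mitosis sums run from 30.6 CPM on E15 plate 2 to 2310 CPM on E13 plate 2, S-phase sums only from 86.7 to 802 CPM.

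The change from embryonic to postnatal plates was tested in 1 fit of the 14 plates of stages with 2 plates (edgeR's quasi-likelihood test with Benjamini-Hochberg adjustment over 17453 genes). Of the 40 members tested, 31 (77.5%) were lower after birth and none was higher at an adjusted p under 0.05, while 24.8% of all genes tested were called lower and 25.7% higher. The median log2 fold change was -1.68 over the members, against -0.0028 over all genes. By role, 20 of 24 mitosis genes fell, with a median of -1.86 over the 24, as did 9 of 13 S-phase genes (median -1.46) and 2 of 3 G1 cyclins. Cenpa fell most, by 2.72 ± 0.606 (SE) on the log2 scale (mean 37.5 CPM over embryonic stages and 2.89 CPM after birth, adjusted p = 0.00318), followed by Cdca8 (-2.67 ± 0.521, adjusted p = 0.00139) and Cdc20, the activator of the anaphase-promoting complex (-2.58 ± 0.587, adjusted p = 0.00357). Cenpa was at 27.1 and 15.7 CPM (E11), 22.6 (E12), 42.1 and 166 (E13), 10.9 and 2.08 (E15), 33.1 and 3.01 (E18), 1.19 and 3.53 (P4), 2.45 and 1.41 (P7), and 0 and 8.75 (adult), so that its second E15 and E18 plates overlapped the postnatal range.

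Among the S-phase genes Rrm2 fell by 2.55 ± 0.426 (31.7 to 4.09 CPM, adjusted p = 0.000492). Mcm7 was at 45.8 to 114 CPM on the 9 embryonic plates and 13.7 to 25.05 CPM on the 6 later ones, with no overlap, and fell by 1.65 ± 0.174 (adjusted p = 1.95e-05). Mcm7 overlaps Cops6, Ap4m1 and the microRNA genes Mir25, Mir93 and Mir106b, 3 of the 5 on its own strand, and reads of these could not be told apart. Pcna did not pass the test (0.023 ± 0.186, adjusted p = 0.936), nor did Gmnn (-0.28 ± 0.428), Mcm4 (-0.41 ± 0.196, adjusted p = 0.104) or Mcm3 (-1.46 ± 0.676, adjusted p = 0.0927). Pcna, Tyms, Ccnb1 and Ccnb2 have named pseudogenes, so their counts are uncertain. Among the mitosis genes Prc1, a spindle midzone protein, had the smallest change (-0.38 ± 0.412, adjusted p = 0.47), and Aurkb, Ccna2 and Bub1b did not pass the test either. Ccnd2 fell by 2.32 ± 0.612 (167 to 25.2 CPM, adjusted p = 0.00841), and Ccne2 did not pass the test (0.62 ± 0.441, adjusted p = 0.265).

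How many members fell depended on a few plates. The 3 plates left out next had the higher mitosis sum at E13 (2310 against 638 CPM) and at E18 (334 against 37.7 CPM). In the adult it was the plate with the lower sum (34.3 against 129 CPM). The S-phase sums were ordered alike. Leaving these plates out lowers the embryonic side and raises the later one, so a smaller fall was built in. Without E13 plate 2, E18 plate 1 and adult plate 1, a choice made after seeing the data that leaves 1 plate at each of those stages, 10 of 41 members fell (24.4%, against 23.8% of all genes), 4 of them of the 24 mitosis genes and 5 of the 14 S-phase genes. Ccne2 rose in that fit, as 30.1% of genes did (1.14 ± 0.281, adjusted p = 0.00738), and Mki67, Ccnb1, Ube2c and Tpx2, which fell over all plates, took the opposite sign without passing the test. So did 3 members not called in either fit, Mcm3 (1.12 against -1.46), Prc1 (0.48 against -0.38) and Gmnn (0.42 against -0.28). Leaving out E18 plate 1 alone left 15 of 41 members called lower (36.6%, against 24.3% of genes). Over all plates and 24 alternatives 9 of 40 members (22.5%) were called lower every time, against 14.9% of 17439 gene symbols: Rrm1, Rrm2, Mcm2, Mcm7, Tyms, Ccnd2, Cenpa, Cenpf and Kif23.

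**Figure D3:**
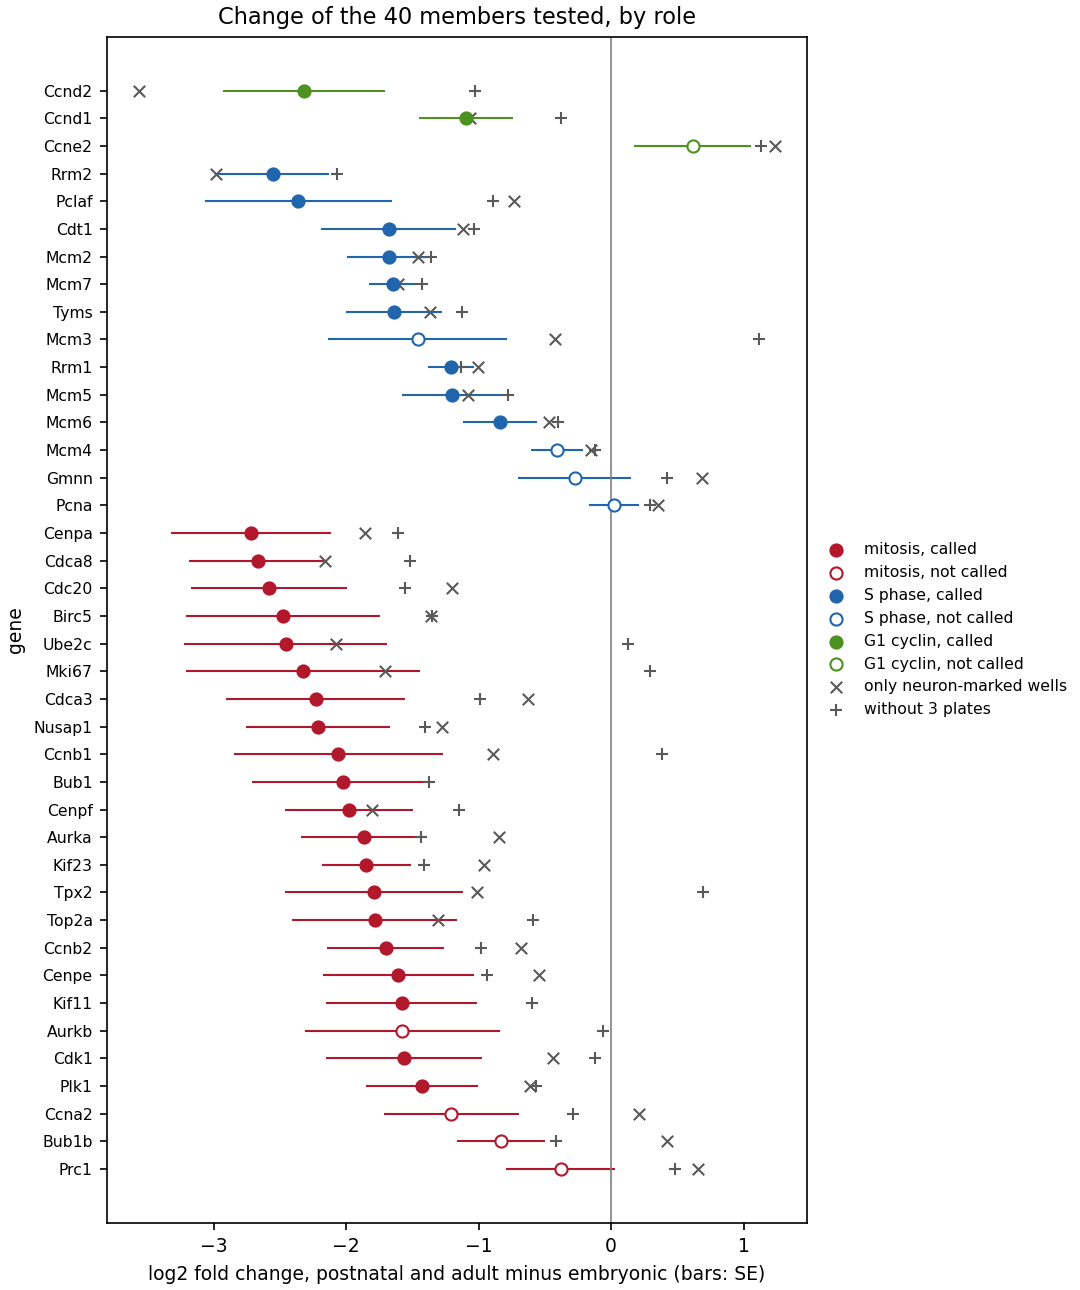
Log2 fold change from embryonic to postnatal and adult plates for the 40 members tested, grouped by role; circles with SE bars are from all kept wells (filled where the adjusted p was under 0.05), crosses from neuron-marked wells only and plus signs from the fit without 3 plates. Most circles lie below 0, with Cenpa lowest at -2.72; most grey marks lie nearer 0, while those of Mcm7 and Rrm1 lie close to their circles and Rrm2 ranges from -2.98 to -2.07.

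The same contrast was taken within wells that held at least 5 of the 10 neuron markers after thinning to 2000 UMIs, again a choice made after seeing the data. There 13 of 37 members fell (35.1%, against 27.2% of all genes): Rrm2 (-2.98 ± 0.419), Mcm7, Mcm2, Tyms, Cdt1, Mcm5 and Rrm1 of S phase, Ccnd2 (-3.57 ± 0.658) and Ccnd1 of G1, and Cdca8, Cenpa, Cenpf and Kif23 of mitosis. S-phase genes passed in 7 of 13 cases and mitosis genes in 4 of 21. Gmnn (0.69), Prc1 (0.66), Bub1b (0.42) and Ccna2 (0.21) had positive estimates there that did not pass the test, against negative ones over all wells. Ccne2 rose (1.24 ± 0.344, adjusted p = 0.00765), as did 30.8% of genes.

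Between successive stages few members passed the test. From E13 to E15 none of 40 was called by edgeR (16 of 17453 genes, 0.0917%, were), although all 40 had lower estimates, with a median of -3.26, and 38 were lower at an unadjusted p under 0.05, against 7.04% of all genes. DESeq2 called 21 of 40 members there, all lower, against 1.75% of the genes to which it gave an adjusted p. Without E13 plate 2 the members lower at an unadjusted p were 19 of 41, against 2.77% of genes, with a median of -2.29. From E11 to E13 none of 40 was called by edgeR either (1.45% of genes were). Of the 40, 17 had an unadjusted p under 0.05, against 17.8% of genes. Estimates were higher at E13 for 39 of the 40, with a median of 1.82. Among all genes they were higher for 8893 of 17453, with a median of 0.015. DESeq2 called 3 of 40 members (7.5%, against 5.48% of genes). From E15 to E18 (0.195% of genes called) and from P4 to P7 (0.00573%) edgeR and DESeq2 called none, with 4 and 0 members at an unadjusted p under 0.05, against 17.2% and 2.72% of genes. From E18 to P4, where 10.4% of genes were called lower, Mcm7 alone fell (-1.57 ± 0.308, 83.9 to 24.2 CPM, adjusted p = 0.00731), and Ccnd1 (-1.97, adjusted p = 0.0524) and Ccnd2 (-3.07, adjusted p = 0.07) missed the threshold. Mcm7 was not called there when either P4 plate was left out. From P7 to the adult, where 1.76% of genes were called higher, Ccnd1 rose from 6.26 to 45.0 CPM (log2 fold change 2.77 ± 0.673, adjusted p = 0.0478), a call lost when P7 plate 1, P7 plate 2 or adult plate 1 was left out and with the replicate number as a block.

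Other cell cycle genes were read against the 24.8% of all genes that fell and the 25.7% that rose from embryonic to postnatal plates. Of 60 further mitosis genes tested, 33 (55%) fell and none rose, led by Cenpw, a centromere protein (-3.65 ± 0.339), and the phosphatase Cdc25c (-3.44 ± 1.03). Of 61 further S-phase genes 28 (45.9%) fell, led by Uhrf1 (-2.97 ± 0.477) and the helicase subunit Gins1 (-2.73 ± 0.464), and Rpa1 (0.75 ± 0.179) and Rpa2 (0.58 ± 0.168) of the single-strand binding complex rose. Of 17 inhibitors and G1 regulators 6 (35.3%) fell and 2 (11.8%) rose. Without the same 3 plates 14 of 60 further mitosis genes fell and 1 rose, 18 of 60 further S-phase genes fell and 7 rose, and 8 of 17 inhibitors and G1 regulators fell and 3 rose, against 23.8% and 30.1% of all genes. Cdkn1c, an inhibitor that is known for cell cycle exit, fell by 4.74 ± 0.183 from embryonic to postnatal plates, beside Cdk4 (-1.71 ± 0.178). At the first and last stages alone, Cdkn1c was at 482 ± 65.0 CPM (SD, n = 2, E11) and 10.8 ± 0.414 CPM (SD, n = 2, adult). Rbl2, a pocket protein of quiescent cells (1.48 ± 0.101), and Cdk6 (1.33 ± 0.395) rose. Over all plates 4 of 8 progenitor markers fell, 7 of 9 intermediate progenitor markers fell and 1 rose, 5 of 10 neuron markers fell and 3 rose, 5 of 6 astrocyte markers rose, and all 5 oligodendrocyte precursor markers rose. Without the 3 plates 3 progenitor markers fell and 3 rose, 6 intermediate progenitor markers fell and 2 rose, 7 neuron markers fell and 3 rose, and the 6 astrocyte and 5 precursor markers rose. In neuron-marked wells, where 27.2% of all genes fell and 30.8% rose, 12 of 46 further mitosis genes (26.1%) fell and 2 rose and 19 of 53 further S-phase genes fell and 6 rose. There 5 of 8 progenitor and 7 of 9 intermediate progenitor markers fell, 7 of 10 neuron markers fell and 3 rose, and 4 of 5 oligodendrocyte precursor markers rose. The part of cell mixture in the members' change was not tested, and the neuron-marked wells are no test of it. They were chosen by markers of which most fell, and in unlike parts of the plates. On E11 plate 2 the choice kept 330 wells and set aside 9. On adult plate 2 it kept 133 and set aside 194, and on adult plate 1 it kept 13 and set aside 27.

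To see in how many wells the genes were on, each well was thinned to 2000 UMIs, which left 3591 wells of the series and set aside 138 shallower ones. At least 3 of the 24 mitosis genes were detected in 119 wells, and 62 wells held 2 and 18 held 3, next to the threshold on either side. The share of such wells was 6.89% and 2.95% (E11), 5.71% (E12) (exact 95% interval 3.30% to 9.11%), 5.19% and 20.9% (E13), 2.26% and 0% (E15), 5.36% and 0% (E18), 0.360% and 0.635% (P4), 0.926% and 0.355% (P7), and 0% and 3.98% (adult). The 0 shares were 0 of 292, 0 of 107 and 0 of 40 wells, where 3 wells of the total, the limit used here for a 0, are 1.03%, 2.80% and 7.5%, and the two-sided exact 95% intervals of the plot of shares end at 1.255%, 3.39% and 8.81%. The median was 5.19% over the 9 embryonic plates and 0.497% over the 6 later ones, and the ranges overlapped (0% to 20.9% and 0% to 3.98%). E13 plate 2 alone held 22.7% of the 119 wells. Without thinning the medians were 9.36% and 4.89%. Intervals and limits cover counting error only.

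**Figure D4:**
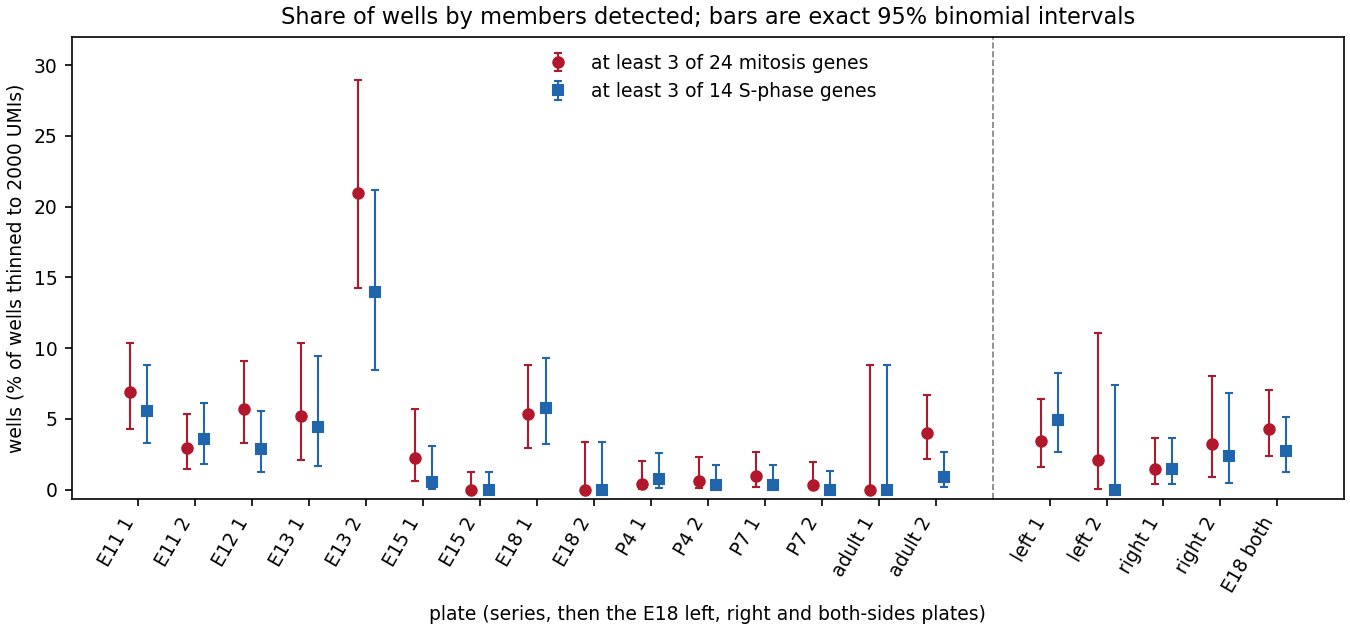
Share of wells, in percent of wells thinned to 2000 UMIs, with at least 3 of the 24 mitosis genes (circles) and with at least 3 of the 14 S-phase genes (squares) on each plate, with exact 95% binomial intervals; the dashed line separates the series from the E18 set. E13 plate 2 stands at 20.9% and 14.0%, E15 plate 2 and E18 plate 2 at 0%, and the P4 and P7 plates below 1%.

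How far mitosis UMIs were gathered in few wells differed between plates. The 5% of wells with most of them held 76.5% and 79.5% of all mitosis UMIs on the E11 plates, 78.7% at E12 and 82.3% on E13 plate 1. They held 53.6% on E13 plate 2, 65.9% and 35.0% on the E15 plates and 72.25% and 38% on the E18 plates. E15 plate 2 and E18 plate 2 had only 103 and 50 mitosis UMIs. On the 6 postnatal and adult plates the share ran from 34.6% (adult plate 1) to 66.3% (P7 plate 1). On E13 plate 2 a mitosis UMI was seen in 97.1% of kept wells before thinning, against 25.8% to 62.1% on the other 14 plates. Neuron-marked wells were taken for comparison, as neurons do not divide, although wells of 2 cells or of cells between classes were not removed from them. After thinning 36.6% of them held at least 1 mitosis gene on E13 plate 2 and 3.87% to 18.1% on the others. At least 3 mitosis genes were found in 12 of 1682 neuron-marked embryonic wells and in 87 of the other 343, and 1 of the 12, on E11 plate 2, held 15 mitosis genes with 6 neuron markers. Median depths before thinning were 12420 UMIs in neuron-marked and 13860 in the other wells of E13 plate 2, and 16430 and 10080 on E11 plate 1.

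S-phase and mitosis genes were often on in the same wells. At least 3 of the 14 S-phase genes were detected in 84 wells, of which 51 also held at least 3 mitosis genes. The mitosis genes were found without the S-phase genes in 68 wells, the reverse in 33, and neither in 3439. On E11 plate 1, 14 of 17 S-phase wells were also mitosis wells, on E11 plate 2 10 of 12, on E13 plate 2 10 of 18 and on E18 plate 1 5 of 15. On adult plate 2 none of the 13 mitosis wells was an S-phase well.

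The markers found in mitosis wells are described here by age. No difference between ages was tested, and the share of all wells holding the same markers is not given. In the 99 embryonic ones the median was 8 mitosis genes detected and 56 mitosis UMIs before thinning, 71 wells held at least 3 of the 8 progenitor markers and 42 at least 3 of the 10 neuron markers. Mural and fibroblast markers (at least 3 of 7) were in 13 of the 99, microglia markers in 3 and oligodendrocyte precursor markers in 0. The P4 and P7 plates held 7 such wells, with 27 to 231 mitosis UMIs. Of these, 3 held at least 3 of the 5 oligodendrocyte precursor markers (Pdgfra, Cspg4, Olig1, Olig2, Sox10), with 5, 4 and 5 of them detected. The first 2 of these, both on P4 plate 2, also held 3 and 5 of the 10 neuron markers, and wells of 2 cells were not called. The other 4 of the 7 held 2, 0, 0 and 0 precursor markers. Another P7 well held 3 mural and fibroblast markers, a P4 well held 6 of the 8 progenitor markers, and the well of P7 plate 2 held 4 of them.

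The 13 wells of adult plate 2 stood apart. They held 5 to 22 mitosis UMIs each before thinning, with a median of 10, and a median of 4 mitosis genes. The kept well of adult plate 2 with the most mitosis UMIs held 52 and was not among the 13. The median depth of the 13 was 6077 UMIs, against 11470 in the embryonic and 15860 in the P4 and P7 mitosis wells. UMIs before thinning are therefore not at like depth. After thinning 1 of the 13 reached 6 mitosis genes, against 72 of the 99 embryonic wells. At least 3 progenitor markers were in 6 of them, astrocyte markers in 4, oligodendrocyte precursor markers in 4, neuron markers in 4, habenula markers in 3, oligodendrocyte markers in 2, endothelial markers in 2 and ependymal and choroid plexus markers in 1, with some wells counted more than once. Of the 13, 6 held exactly 3 mitosis genes, against 3 of 27 on E13 plate 2. With at least 5 mitosis genes asked for, the share on adult plate 2 was 0.917% (3 wells) and that on E13 plate 2 16.3%. With thinning to 1000 UMIs they were 0.877% (3 wells) and 18.2%. With at least 2 mitosis genes they were 7.645% (25 wells) and 31.8%, and without thinning 18.1% (62 of 342 wells) and 75.9%, where E11 plate 1 was at 15.2%.

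**Figure D5:**
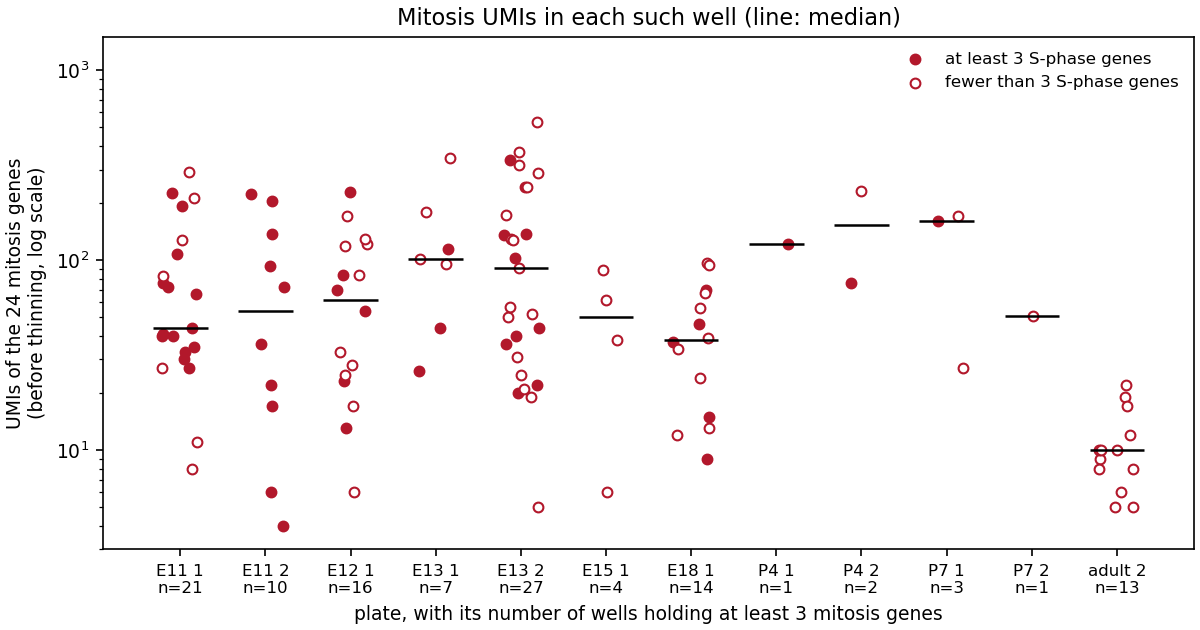
UMIs of the 24 mitosis genes before thinning (log scale) in each of the 119 wells with at least 3 of these genes, by plate; filled points also held at least 3 S-phase genes, and the line is the plate's median. Embryonic wells reach 531 UMIs, the 7 wells of P4 and P7 lie between 27 and 231, and the 13 wells of adult plate 2 lie between 5 and 22 with no filled point.

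What else distinguished mitosis wells was tested with edgeR on sums per plate, wells with at least 3 against wells with none of the 24 mitosis genes, with the plate as a block, on the 6 plates with at least 10 wells in each class (2 at E11, 1 each at E12, E13, E18 and the adult). The 24 genes chose the wells and were not tested. Of 1617 genes that passed the filter, 414 were called, 172 higher and 242 lower in mitosis wells. Leaving out 1 plate changed both the genes called and the genes tested. The calls were 212 of 1646 (12.9%) without E11 plate 1, 245 of 1637 (15%) without E11 plate 2 and 237 of 1603 (14.8%) without the E12 plate. They were 557 of 5131 (10.9%) without E13 plate 2, 469 of 1681 (27.9%) without E18 plate 1 and 485 of 1726 (28.1%) without adult plate 2. A gene could pass the filter through the class of wells in which it was high, so the calls among members and markers are a description. Ccnd2 was the 1 member that passed, and rose (2.64 ± 0.527, adjusted p = 0.00254, against 10.6% of genes called higher). On E18 plate 1 the 3 G1 cyclins together were at 1.14 UMIs per thinned mitosis well and 1.33 per well without mitosis genes. On the other plates of the test they were higher in mitosis wells. Of 8 progenitor markers the 5 that passed the filter all rose, led by Sox2 (3.25 ± 0.642) and Fabp7 (3.10 ± 0.643). Of 10 neuron markers 9 passed the filter and 8 fell, led by Stmn2 (-3.15 ± 0.331) and Dcx (-2.74 ± 0.329). The habenula transcription factors Nhlh2 (-3.00 ± 0.461), Pou4f1 (-2.88 ± 0.364) and Irx2 (-2.12 ± 0.496) fell. Without the filter all 17 S-phase and G1 members could be fitted, and 9 of them rose: Pclaf (5.90 ± 0.581), Rrm2, Mcm3, Mcm5, Gmnn, Rrm1, Mcm7, Ccnd1 and Ccnd2. In that fit 236 of 25192 genes (0.937%) rose and 1154 fell, with a median log2 fold change of -0.707 over all genes. Those genes include every gene with at least 1 count, so 0.937% is not a like background for the members.

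At E18 the plates of the 2 sides overlapped in the mitosis sum and no member passed the test. The mitosis sum was 137 and 217 CPM on the left plates, 113 and 329 on the right plates and 214 with both sides together, so the left values lay between the right ones. Top2a was at 12.7 and 19.0 CPM on the left and 6.16 and 39.4 on the right, and Ccnd2 at 79.3 and 29.8 on the left and 47.3 and 95.3 on the right. The share of mitosis wells was 3.41% (9 of 264) and 2.08% (1 of 48) on the left. It was 1.45% (4 of 276) and 3.20% (4 of 125) on the right and 4.27% (14 of 328) with both sides together. Left plate 2 kept only 54 of 384 wells, and the exact 95% interval of its share ran from 0.053% to 11.1%. Of 15489 genes edgeR called 0 (0%), and none of the 38 members tested was called or had an unadjusted p under 0.05, which 1.18% of genes had. DESeq2 called no member either. The estimate was higher on the right for 33 of 38 members, with a median log2 fold change of 0.27, and for 7871 of 15489 genes, with a median of 0.0056. The erythroid marker list was at 16910 and 14890 CPM on the left plates and at 3121 and 251 CPM on the right plates, and its part in the values of the 2 sides was not tested.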

How the data were processed

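Single cells in 384-well plates were sequenced by CEL-Seq2, which counts transcript 3′ ends with 6-base molecular identifiers (UMIs), per the labels' protocols. Reads were trimmed with Trim Galore and aligned with STAR 2.5.3a to mm10, per the submitters' processing notes. Which counter and annotation were used is not given in the sources. The values the authors deposited are expected counts, which the values themselves show to be UMI counts per gene and well corrected for UMI collisions: undoing that correction gave whole UMIs for 100% of values (tolerance 1e-06), against 46.1% as deposited in the series. Tests had been planned for whole counts, so plate sums of the deposited values were rounded, with the recovered UMIs as an alternative. The 41 members and all gene lists were chosen with earlier results of these data known.

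A well was kept if it had 1000 or more UMIs, mitochondrial genes and spike-ins not counted, 500 or more genes, and a mitochondrial share up to 20%; no doublet caller was run. Levels are counts scaled to 1000000 per plate over its kept wells. Stages were compared with edgeR 4.0.16 (filterByExpr, TMM, quasi-likelihood test, Benjamini-Hochberg adjustment over all genes tested, threshold 0.05) in R 4.3.3, with DESeq2 1.42.0 as an alternative, after tests on simulated data. The 14 plates of the stages with 2 plates share 1 estimate of spread. E12, with 1 plate, is not in that fit, but is described and enters an alternative fit and the test of mitosis wells. For wells, counts were thinned to 2000 UMIs. Alternatives were other normalizations, no filter, other well limits and thinning depths, the replicate number as a block and leaving out each plate. Gene positions matched GENCODE M21 for 37938 of 37994 identifiers.

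Values on every plate are given for Mki67, Top2a, Cdk1, Ccnb1, Pcna, Mcm3, Rrm2 and the G1 cyclins. Per contrast all called members are named where there are at most 5, otherwise the 3 with the largest change in each direction, and any called against the majority. Other lists are named by the 2 called genes with the largest change in each direction. Further members were named after their values were seen.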

Additional observations from a re-analysis of the deposited data

How the results depend on the processing

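The members' fall from embryonic to postnatal plates was called for 31 genes, and for 15 to 34 when 1 plate was left out (19.2% to 24.3% of genes fell in those fits), lowest without E18 plate 1 and 19 or 20 without E15 plate 1, P4 plate 1, E13 plate 2 or P7 plate 2. In neuron-marked wells only, 14 of 37 members were called (37.8%, against 58% of genes), 13 of them lower (35.1%, against 27.2%). Without E13 plate 2, E18 plate 1 and adult plate 1, 11 of 41 were called (26.8%, against 53.9% of genes), 10 of them lower (24.4%, against 23.8%). Both fits were added after seeing the data. With the replicate block 26 of 40 members were called from embryonic to postnatal plates (23.7% of genes fell), and the P7-to-adult count went from 1 to 0. Same-numbered plates were not treated as paired in the main fits. Correlations of their deviations ran from -0.357 to 0.246 over 21 pairs of stages, with 4 above 0.1. Left and right gave 0.233, and whether their same-numbered plates shared animals is not known. With the replicate block, 6 of 15489 genes (0.0387%) were called from left to right, all lower on the right. None of the 38 members was called in that fit. DESeq2 called 3 members from E11 to E13 (7.5%, against 5.48% of genes) and 21 from E13 to E15 (52.5%, 2.58%). It called 4 from E18 to P4 (9.76%, 19.4%) and 3 from P7 to the adult (7.32%, 7.59%). In the mitosis wells it called 858 of 9563 genes (8.97%). Without the filter on low counts the calls were 21 of 41 members from E11 to E13 (4.56% of genes), 35 from E13 to E15 (3.32%) and 7 from E15 to E18 (3.89%). They were 13 from E18 to P4 (12.8%), 1 from P4 to P7 (0.362%) and 5 from P7 to the adult (4.7%). In mitosis wells 1390 of 25192 genes (5.52%) were then called. From E18 to P4, 3 were called, all lower, with DESeq2's size factors in edgeR (7.5%, against 11.3% of genes lower) and 6 without wells above 3 times the plate median (15%, 12.1%). From P4 to P7, 1 of 36 was called in a fit of those 4 plates (3.64% of genes). Leaving out 1 plate gave 0 to 2 members from E11 to E13 (0.151% to 2.39% of genes), 0 to 8 from E13 to E15 (0.00496% to 0.402%), 0 to 5 from E15 to E18 (0.0199% to 10.5%), 0 to 7 from E18 to P4 (3.08% to 28.5%), 0 to 1 from P7 to the adult (0.145% to 5.81%), 212 to 557 genes in mitosis wells, and median shares of 4.07% to 5.27% (embryonic) and 0.360% to 0.635% (postnatal). In mitosis wells the fits with 1 plate left out called 10.9% to 28.1% of the genes tested. Mitosis wells taken at 5 members gave 273 of 1633 genes (16.7%) and thinning to 1000 UMIs 108 of 758 (14.2%). The postnatal share without thinning was 4.89%. Among 53 named genes that were called, 994 values under other settings held 806 with the same call, 183 no longer called and 5 of opposite sign: without the 3 plates Tpx2 at 0.69, Ube2c at 0.13, Mki67 at 0.29 and Ccnb1 at 0.38, and without E18 plate 1 Tpx2 at 0.20 (-2.41 to 0.20 over the plates left out). The cause was not tested. On E15 plate 2, E18 plate 2 and adult plate 1 many mitosis genes rest on fewer than 3 counts.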

Other observations

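Within wells holding at least 3 mitosis genes, Top2a was the most often detected of the genes compared here after thinning, in 74.2% of 31 wells at E11 and 70.6% of 34 at E13. Ube2c, an E2 enzyme of the anaphase-promoting complex, was found in 45.2% and 64.7%, Mki67 in 48.4% and 38.2%, and Cdc20 in 16.1% and 26.5%. These genes chose the wells, so the shares are a description.

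The deposited unspliced table gave the share of a gene's UMIs counted as unspliced. Ccnb1 had 0 of 648 UMIs unspliced over the series and Cenpa 0.216%, against 20.9% for the kinesin Kif11 and 27.6% for the spindle protein Nusap1. Kif11 and Nusap1 each overlap 2 other genes, 1 of them on the same strand, while Ccnb1 and Cenpa overlap none. The part of these overlaps in the shares was not tested. The median was 10.6% over 15502 genes with at least 100 UMIs.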
